A study of Mus musculus with 7 samples.

Results

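The replication-dependent histone genes were followed here across mouse thymus arrays, from their transcripts and not from their proteins. These genes encode the core histones H2A, H2B, H3 and H4 and the linker histone H1 that package newly copied DNA, and they lie in clusters of near-identical copies. Members were all probes whose gene symbol in the platform annotation starts with H2ac, H2bc, H3c or H4c followed by a digit, or is one of H1f1 to H1f6. The rule found 56 of the 25695 probes on the array, which stand for 51 of the 16593 genes named by single symbols there, 44 of them on chromosome 13 and 7 on chromosome 3. Symbols chose the probes, but the family was singled out with the intensities of these same arrays known. The differences between genotypes below are therefore a description, and the number of probes past a test supports nothing beyond it.

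The study profiled whole thymus from mice aged 8 weeks that lack RelB (RelB-/-, 3 mice) or carry 1 intact copy of it (RelB+/-, 4 mice), with 1 Illumina bead array per mouse. RelB belongs to the NF-kB family of transcription factors, and the medullary epithelium of the thymus depends on it. The titles call the RelB+/- mice wild type, whereas the genotype labels give 1 disrupted copy in those mice, so no mouse here is labelled as carrying 2 intact copies. Strain, sex and the construct of the disrupted allele are not given in the labels.

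Median raw intensity per array lay between 103.5 and 142.3, and 45.9% to 49.4% of probes were detected, meaning a detection p-value under 0.05 against the array's negative controls. The Relb probe passed detection for 4 of 4 RelB+/- mice and 0 of 3 RelB-/- mice. Genes that define developing thymocytes were measured, with 11 of 13 listed genes kept and a list mean of 10.69 to 10.99, although the Cd8a probe was detected on no array. Transcripts of heart muscle marked RelB+/- 2 and RelB-/- 3, where the mean of the 2 kept heart genes was 11.09 and 12.89, against 5.81 to 6.31 on the other arrays. In RNA from whole tissue, fewer cells of a type and less RNA per cell cannot be told apart.

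Cells make these histones almost only while they copy their DNA, so the transcripts are usually read as a sign of S phase. Most messenger RNAs end in a poly(A) tail, but replication-dependent histone transcripts normally end in a stem-loop, which the stem-loop binding protein SLBP recognises. The labels name a cRNA kit, TotalPrep, which primes from poly(A) tails. Some histone genes of these clusters are also made with a poly(A) tail in cells that no longer divide, and in human H1-2, the counterpart of mouse H1f2, is one of these. How much of the signal came from transcripts with a tail was not tested.

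H2A and H2B genes often stand head to head and share the stretch of DNA between their starts. Of the members, 6 such pairs with starts within 500 bases of each other were on the array, and both genes were detected in 5 of them. The stretches of 3 pairs are shown because the H2A and H2B transcripts of each pair behaved differently on these arrays. Upstream stretches of 3 H4 genes and of H1f1 are shown because these genes varied widely between arrays. All were taken from RefSeq on build GRCm38.p6, run 5′ to 3′, and carry motif matches in capitals. For a pair the plus strand between both starts is given, and for a single gene the 120 bases before its start on its own strand.
H2ac15 and H2bc15, chr13:21753913-21754075, plus strand: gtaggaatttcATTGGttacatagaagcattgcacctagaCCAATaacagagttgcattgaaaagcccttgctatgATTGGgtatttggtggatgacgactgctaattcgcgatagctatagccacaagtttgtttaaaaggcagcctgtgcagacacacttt
H2ac12 and H2bc12, chr13:22035644-22035820, plus strand: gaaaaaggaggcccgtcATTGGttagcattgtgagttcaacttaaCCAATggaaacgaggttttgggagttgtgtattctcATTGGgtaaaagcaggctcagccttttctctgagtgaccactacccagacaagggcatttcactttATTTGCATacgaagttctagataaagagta
H2ac7 and H2bc7, chr13:23574208-23574380, plus strand: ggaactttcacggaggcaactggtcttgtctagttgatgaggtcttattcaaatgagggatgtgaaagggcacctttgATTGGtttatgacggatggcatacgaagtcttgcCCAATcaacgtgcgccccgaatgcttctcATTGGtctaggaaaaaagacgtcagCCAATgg
H4c3, chr13:23698459-23698578, minus strand: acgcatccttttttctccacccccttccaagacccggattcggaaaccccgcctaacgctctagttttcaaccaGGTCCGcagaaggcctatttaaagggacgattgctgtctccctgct
H4c12, chr13:21750554-21750673, minus strand: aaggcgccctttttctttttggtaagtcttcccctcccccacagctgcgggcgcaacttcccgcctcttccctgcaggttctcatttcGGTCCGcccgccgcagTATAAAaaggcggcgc
H4c18, chr13:21832198-21832317, minus strand: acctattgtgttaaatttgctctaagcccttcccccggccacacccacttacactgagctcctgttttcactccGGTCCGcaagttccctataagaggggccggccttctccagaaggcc
H1f1, chr13:23763548-23763667, plus strand: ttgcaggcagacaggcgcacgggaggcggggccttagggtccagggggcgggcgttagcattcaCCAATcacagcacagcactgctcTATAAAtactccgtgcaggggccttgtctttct

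The motifs searched, on both strands, were the CCAAT box, the TATA box in the form TATAAA, the octamer ATTTGCAT known from H2B promoters, and GGTCCG, which is the core of an element of H4 promoters that the factor HINFP binds. The last was added after the sequences had been read. No motif contains another, although the reverse of the CCAAT box and GGTCCG can share bases. Promoters from 250 bases before to 50 bases after the start were found for 47 of the 51 member genes. GGTCCG was in 9 of 9 H4 promoters, in 1 of 11 H2B promoters and in none of the 14 H2A, 7 H3 and 6 H1 promoters, against 8.25% of all 32851 promoters in the table. CCAAT was in 2 of 9 H4 promoters and in every promoter of the other classes, against 37.4% of all promoters. The octamer was in 7 of 11 H2B and 6 of 14 H2A promoters and in no other member's, against 1.74% of all. Promoter windows of head-to-head H2A and H2B genes overlap, so 1 site can count for both, as does the octamer between H2ac12 and H2bc12. The H2A and H2B counts are therefore not separate observations. TATAAA was in 29 of the 47, against 13.6%. These matches describe letters and are not binding sites.

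Of the 56 probes, 46 were detected on all 7 arrays and 7 on none. A probe was kept if 3 or more arrays detected it, and 48 histone probes of 46 genes passed, among 12465 kept probes in all. They comprised 13 probes of H2A, 12 of H2B, 10 of H3, 10 of H4 and 3 of H1. Because a probe could pass through either genotype, these 48 are not all members. The genes with no kept probe were H1f3, H1f4, the testis linker histone H1f6, and the testis genes H2ac1 and H2bc1. Another probe of H2bc4 was detected on 1 array, and 2 further probes of H3c7 on none.

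In normalised values the histone transcripts fell into high and low arrays that did not follow genotype alone. RelB+/- 1, 2 and 3 were high, and all 3 RelB-/- arrays and RelB+/- 4 were low. The mean of the 48 normalised log2 values came to 10.27, 10.02, 10.15 and 9.31 in RelB+/- 1 to 4. In RelB-/- 1 to 3 it came to 9.27, 9.46 and 9.27. RelB+/- 4 therefore lay within the range of the RelB-/- arrays. It was the lowest RelB+/- array for 37 of the 48 probes (77.1%), against 26.0% of all kept probes. In raw log2 values without scaling it was the lowest RelB+/- array for 21 of the 48. Its raw mean was 10.111, against 9.945 to 10.609 on RelB+/- 1 to 3 and 9.476 to 9.984 on the RelB-/- arrays. RelB+/- 4 was therefore placed among the low arrays only after scaling between arrays. Each scaling tried placed it there. Under median scaling, cyclic loess and the authors' processed values it was also the lowest RelB+/- array for 37 of the 48. Its mean then lay within the RelB-/- range each time. Quantile normalization had brought the mean of all kept probes to between 7.76 and 7.79 on every array.

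**Figure D1:**
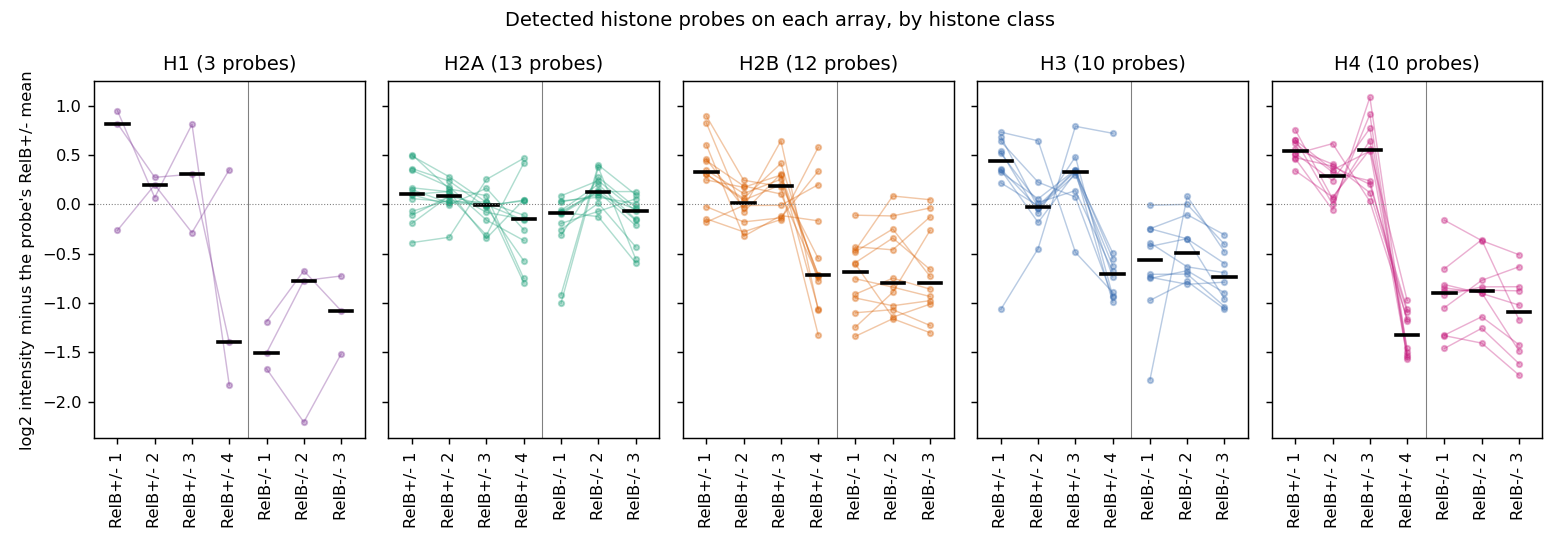
Normalised log2 intensity of each kept histone probe on each array, minus that probe's mean over the RelB+/- arrays, by histone class. Thin lines join the values of 1 probe within a genotype, black bars are the median over probes, and the dotted line is 0. All H4 probes and most H1, H2B and H3 probes are at their lowest RelB+/- value on RelB+/- 4, with exceptions that include H1f2, H2bc4, H2bc6, H2bc8 and H3c7, while the H2A medians stay nearer 0.

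H4, which forms the core of the nucleosome with H3, was low on the same 4 arrays in all of its kept probes. The mean of the 10 H4 probes was 9.72, 9.40, 9.67 and 7.86 on RelB+/- 1 to 4 and 8.22, 8.28 and 8.03 on RelB-/- 1 to 3. In all 10 probes each RelB-/- array was below RelB+/- 1, 2 and 3, and in all 10 RelB+/- 4 was the lowest RelB+/- array and below at least 1 RelB-/- array. So no H4 probe separated the genotypes in these normalised values. RelB+/- 4 was below at least 1 RelB-/- array for 8 H4 probes under median scaling, for 9 under cyclic loess and for 6 in raw values without scaling, and it stayed the lowest RelB+/- array for all 10 in each. Over all kept probes, 8.82% had every RelB-/- array below RelB+/- 1, 2 and 3, a comparison that was chosen after the values were seen.

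Among single H4 genes, H4c3 read 8.93, 8.41, 9.55 and 6.97 on RelB+/- 1 to 4 and 7.13, 7.06 and 6.73 on RelB-/- 1 to 3. Its log2 difference, RelB-/- minus RelB+/-, was -1.49 (SE 0.52). H4c12 read 10.22, 9.56, 10.47 and 7.99 against 8.10, 8.30 and 7.95, a log2 difference of -1.44 (SE 0.52). For both genes RelB+/- 4 lay among the RelB-/- arrays, and RelB+/- 1, 2 and 3 stood apart. Before normalization the raw intensity of H4c12 was 1306, 594, 1569 and 452 on RelB+/- 1 to 4 and 290, 406 and 390 on RelB-/- 1 to 3. Its raw value on RelB+/- 4 was thus the lowest of RelB+/- but above every RelB-/- array, so the place of that array among the RelB-/- arrays rests on scaling between arrays. H4c18 (10.01, 9.31, 9.90 and 7.80 against 7.93, 8.12 and 7.84) differed by -1.30 (SE 0.48). H4c4 (9.53, 9.26, 9.79 and 7.49 against 8.17, 8.12 and 7.53) differed by -1.07 (SE 0.50). In both, RelB+/- 4 was lower than every RelB-/- array, and the spread within RelB+/- was wider than the gap between the genotype means. The other 6 H4 probes, of H4c2, H4c6, H4c8, H4c9, H4c11 and H4c14, had log2 differences from -0.91 to -0.35. All H4 copies encode the same protein, so their probes may share targets and are not independent readings.

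H2B, the partner of H2A in the nucleosome, was the class in which genotypes separated most often. The mean of its 12 probes was 9.35, 9.0, 9.18 and 8.51 on RelB+/- 1 to 4 and 8.26, 8.35 and 8.34 on RelB-/- 1 to 3. RelB+/- 4 was again the lowest RelB+/- array but stayed above all RelB-/- arrays. For 6 of the 12 probes, those of H2bc4, H2bc7, H2bc9, H2bc11, H2bc14 and H2bc15, every RelB-/- array was below every RelB+/- array, against 6.15% of all kept probes.

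H2bc9 read 11.87, 11.62, 11.98 and 10.78 on RelB+/- 1 to 4 and 10.47, 10.50 and 10.34 on RelB-/- 1 to 3, with a log2 difference of -1.13 (SE 0.28). H2bc15 read 10.82, 10.33, 11.01 and 9.29 against 9.03, 9.21 and 9.06, with a difference of -1.26 (SE 0.37). In both genes the RelB-/- arrays lay close together, and RelB+/- 4 stood above them but nearer to them than to the other RelB+/- arrays. H2bc7 (12.61, 12.53, 12.66 and 11.64 against 11.41, 11.33 and 11.38) differed by -0.98 (SE 0.25). RefSeq lists H2bc7, H2bc11, H2bc13 and H2bc15 as synonyms of one another.

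H2bc3 read 8.49, 7.84, 7.77 and 6.27 on RelB+/- 1 to 4 and 7.11, 7.34 and 6.86 on RelB-/- 1 to 3, and its difference was -0.49 (SE 0.45). Here RelB+/- 4 was the lowest of all 7 arrays, and the difference was -0.93 without it and -0.19 without RelB+/- 1. The 2 kept probes of H2bc18 disagreed in size: 1 (ILMN_2817214) read 7.77, 6.87, 7.26 and 5.89 against 6.34, 5.80 and 5.94, a difference of -0.92 (SE 0.39). The other (ILMN_1231066) read 6.98, 6.05, 6.26 and 6.21 against 6.26, 6.26 and 6.34, a difference of -0.087 (SE 0.22), which was 0.11 without RelB+/- 1, -0.20 without RelB+/- 2 and -0.14 without RelB+/- 4. So the difference of H2bc18 depended on the probe. The H2bc8 probe passed detection for 3 of 4 RelB+/- mice and 0 of 3 RelB-/- mice, and as its RelB-/- level is only a bound, it was at least 1.03-fold lower there. The other H2B differences, of H2bc4, H2bc6, H2bc11, H2bc12 and H2bc14, ran from -0.84 to -0.11.

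H3 followed the same arrays. The mean of its 10 probes was 9.93, 9.61, 9.86 and 8.99 on RelB+/- 1 to 4 and 8.97, 9.17 and 8.88 on RelB-/- 1 to 3. All 10 log2 differences were negative, from -0.94 for H3c1 to -0.14 for H3c8, and for H3c4 and H3c13 the genotypes did not overlap. The 2 kept probes of H3c14 gave -0.57 (SE 0.23) and -0.58 (SE 0.37). The first (ILMN_3136540) read 11.49, 10.96, 11.46 and 10.65 against 10.75, 10.51 and 10.45, and the other (ILMN_3040069) 7.44, 6.72, 7.09 and 5.76 against 6.33, 6.41 and 5.79. The difference of the other probe was -0.89 without RelB+/- 4, -0.35 without RelB+/- 1 and -0.38 without RelB-/- 3. Both probes placed RelB+/- 4 among or next to the RelB-/- arrays. H3c7 departed from its class, since its highest arrays were RelB+/- 3 (10.18) and RelB+/- 4 (10.11) and its lowest were RelB-/- 1 (7.61) and RelB+/- 1 (8.32).

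Linker histones, which bind the DNA that enters and leaves the nucleosome, were measured by 3 kept probes. H1f1 read 8.30, 7.42, 8.16 and 5.52 on RelB+/- 1 to 4 and 5.68, 5.14 and 5.83 on RelB-/- 1 to 3, with a log2 difference of -1.80 (SE 0.61), the largest in size among the 48 histone probes. H1f5 read 8.68, 8.13, 8.17 and 6.46 against 6.67, 7.19 and 6.78, a difference of -0.98 (SE 0.47). RelB+/- 4 lay within the RelB-/- range for H1f1 and below it for H1f5. H1f2 behaved otherwise: it read 11.56, 12.02, 11.54 and 12.17 on RelB+/- 1 to 4 and 10.32, 11.05 and 11.10 on RelB-/- 1 to 3 (log2 difference -1.0, SE 0.25). RelB+/- 4 was then the highest array, and the genotypes did not overlap. H1f2 was 1 of 6 probes for which RelB+/- 4 was the highest RelB+/- array, and the others were those of H2ac6, H2ac8, H2bc4, H2bc6 and H2bc8.

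H2A was the exception among the classes. The mean of its 13 probes was 11.98, 11.94, 11.83 and 11.70 on RelB+/- 1 to 4 and 11.64, 12.01 and 11.71 on RelB-/- 1 to 3, and the genotypes overlapped for all 13. Log2 differences ran from -0.39 to 0.087, with a median of -0.033, against -0.82 for H2B, -0.65 for H3, -0.89 for H4 and -1.0 for H1. The range over the RelB+/- arrays had a median of 0.51 for H2A and of 2.00 for H4, against 0.57 over all kept probes. Within H2A it was 0.12 to 0.42 for the brightest probes, named below, and 0.51 to 1.28 for the dimmer ones. The H2A median therefore does not describe the dimmer probes. The difference between classes was not tested.

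The 6 brightest H2A probes were those of H2ac7, H2ac10, H2ac12, H2ac15, H2ac20 and H2ac24. H2ac20 read 15.13, 15.32, 15.23 and 15.27 on RelB+/- 1 to 4 and 15.27, 15.31 and 15.24 on RelB-/- 1 to 3. H2ac24 read 15.19, 15.31, 15.24 and 15.31 against 15.07, 15.19 and 15.32. These probes sat near the top of the scale: the raw intensity of H2ac20 was 87.5% to 99.4% of the highest on its array and that of H2ac24 86% to 94.5%. H2ac12 (14.88, 14.75, 14.73 and 14.57 against 14.64, 14.88 and 14.57) and H2ac15 (14.71, 14.61, 14.78 and 14.36 against 14.70, 14.85 and 14.55) were lowest on RelB+/- 4, which RelB-/- 3 equalled for H2ac12. That tie is of ranks, since quantile normalization gives probes of equal rank 1 value. Raw intensity of H2ac12 was 26659 on RelB+/- 4 and 27506.5 on RelB-/- 3, and was lowest on RelB-/- 1 (20360). H2ac7 (14.61, 14.57, 14.57 and 14.44 against 14.57, 14.64 and 14.50) and H2ac10 (14.16, 14.19, 13.98 and 13.91 against 13.99, 14.19 and 14.19) were lowest on RelB+/- 4. Fitted differences of the 6 probes lay between -0.069 and 0.087 (SE 0.13 to 0.16), and their sign depended on the scaling between arrays for 5 of them. Whether the brightness of these probes hides a change was not tested, and H2ac7, for one, had its raw values at 52.5% to 62.1% of the highest intensity on each array.

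The 7 dimmer H2A probes did not move together on RelB+/- 4: H2ac6 and H2ac8 were at their highest of all 7 arrays there, H2ac4, H2ac11, H2ac21 and H2ac22 were at their lowest, and H2ac18 was neither. H2ac4 read 8.53, 8.31, 8.05 and 7.24 on RelB+/- 1 to 4 and 7.95, 7.91 and 7.44 on RelB-/- 1 to 3. H2ac21 read 11.53, 11.18, 11.11 and 10.27 against 10.71, 11.30 and 11. In each of these genes RelB+/- 4 was the lowest of the 7 arrays, as it was for 7 of the 13 H2A probes, against 18% of all kept probes. On the RelB-/- arrays H2ac4 was below RelB+/- 1, 2 and 3 each time, whereas H2ac21 read higher on RelB-/- 2 than on RelB+/- 2 and 3. H2ac4 was the 1 H2A probe of 13 with that order (7.69%), which is near the 8.82% of all kept probes. Both were chosen after their values were seen.

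**Figure D2:**
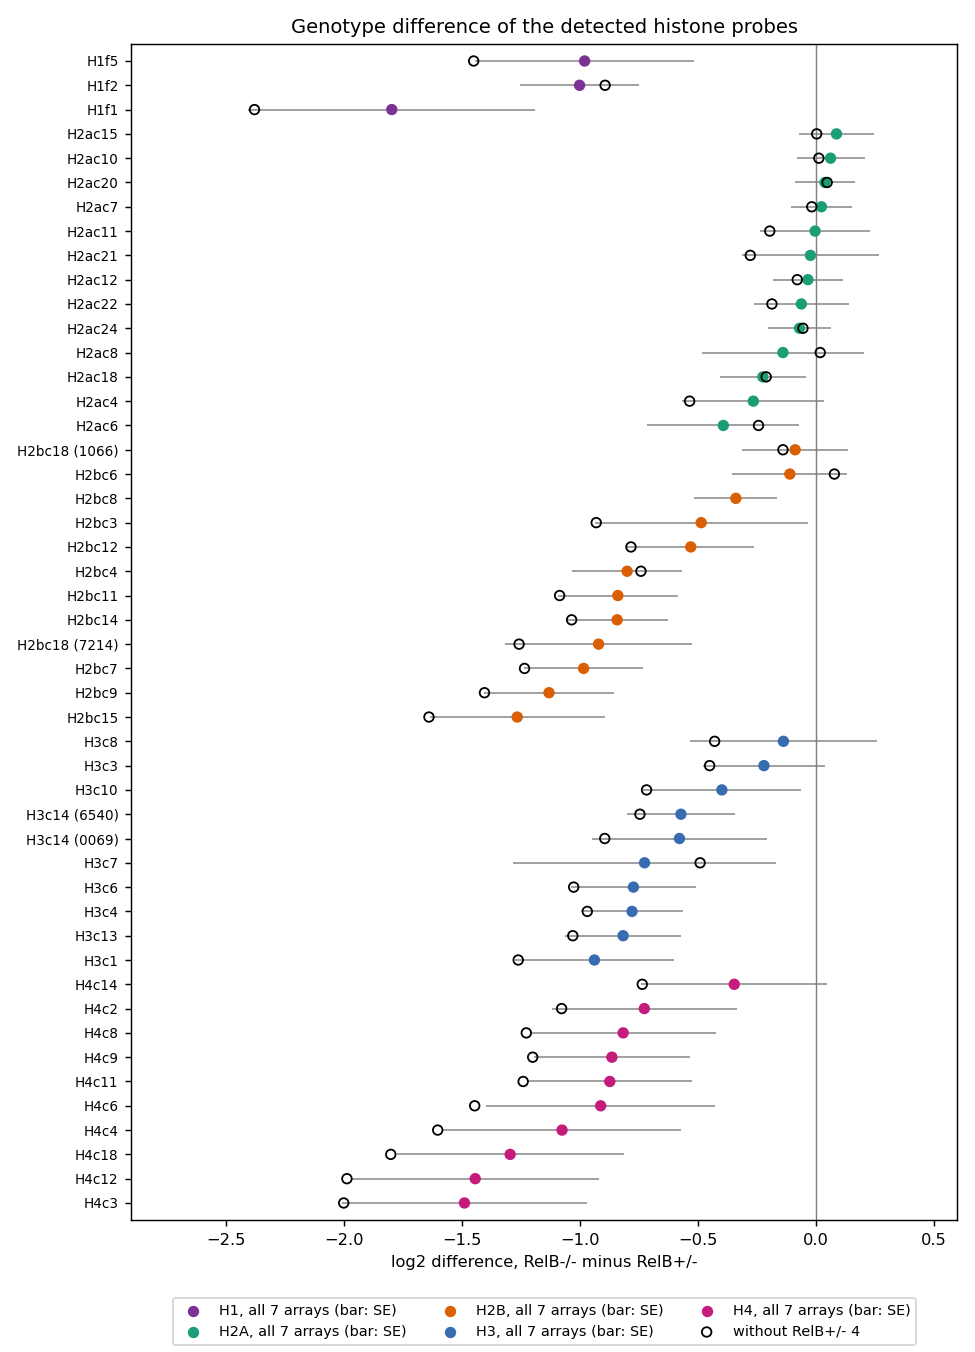
Fitted log2 difference, RelB-/- minus RelB+/-, of each of the 48 kept histone probes, grouped by class. Filled points with bars give the value and its SE from all 7 arrays, and open circles the value without RelB+/- 4, which H2bc8 lacks because it was then not kept; digits in brackets are the last of the probe number. H2A probes lie near 0, and H1, H2B, H3 and H4 probes lie below 0 and mostly move further from it without RelB+/- 4.

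The 5 head-to-head pairs set the classes against each other on shared upstream DNA. In the pair H2ac15 and H2bc15 the H2A probe differed by 0.087 (SE 0.16) and the H2B probe by -1.26 (SE 0.37). For H2ac7 and H2bc7 the differences were 0.024 (SE 0.13) and -0.98 (SE 0.25). The pair H2ac11 and H2bc11 gave -0.0032 (SE 0.23) and -0.84 (SE 0.25), and H2ac12 and H2bc12 gave -0.033 (SE 0.15) and -0.53 (SE 0.27). In these 4 pairs the H2B probe was lower on every RelB-/- array than on RelB+/- 1, 2 and 3, and the H2A probe was not. The fifth pair, H2ac8 and H2bc8, differed by -0.14 (SE 0.34) and -0.34 (SE 0.18), and on RelB+/- 4 both of its probes were at their highest RelB+/- value. The H2bc8 probe was detected on no RelB-/- array and was not kept without RelB+/- 4. Its difference and its high place on that array therefore add no support. The upstream stretches printed above for 3 of these pairs hold 3, 3 and 4 matches to CCAAT, and the octamer is present only in that of H2ac12 and H2bc12. A probe for 1 H2A or H2B copy can bind transcripts of others, so a probe may not report its own gene alone.

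**Figure D3:**
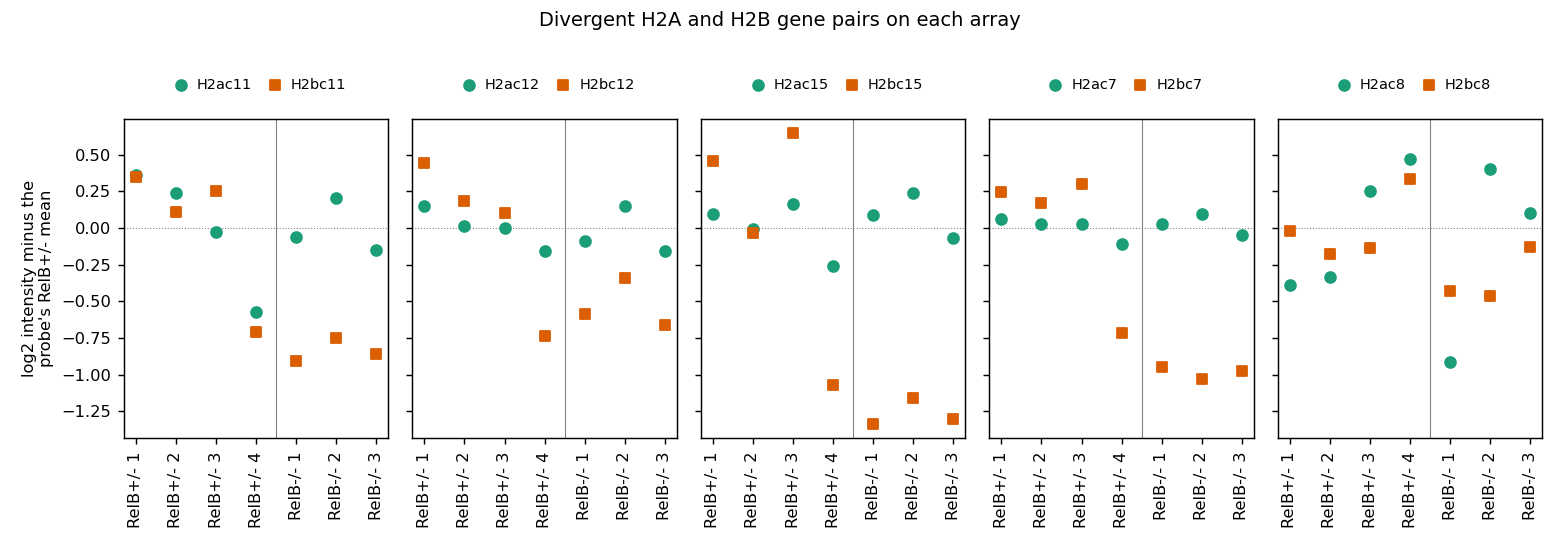
Normalised log2 intensity on each array, minus the probe's RelB+/- mean, for 5 head-to-head pairs of an H2A gene (circles) and an H2B gene (squares); the vertical line separates the genotypes. In the pairs H2ac7-H2bc7, H2ac11-H2bc11, H2ac12-H2bc12 and H2ac15-H2bc15 the H2B probe is lower on RelB-/- arrays and on RelB+/- 4, while the H2A probe on RelB-/- arrays lies near its RelB+/- mean.

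Genotypes were compared over all 12465 kept probes by a limma fit to each probe, with p-values adjusted by the Benjamini-Hochberg method and a threshold of 0.05. In that fit 60 probes were lower in RelB-/- thymus (0.481%) and 8 were higher (0.0642%). None of the 48 histone probes was called in either direction, and the lowest limma adjusted p among them was 0.180, for H2bc9. At an unadjusted p under 0.05, 19 of the 48 were lower and 0 higher, against 6.02% lower and 5.86% higher over all kept probes. Of the 48 histone probes 44 had a negative difference (91.7%), against 47.5% of all, and their median log2 difference was -0.65 against 0.015 over all kept probes. A fall of more than 2-fold was fitted for 8 of the 48, against 1.52% of all, and none of these 8 passed the test. For 9 of the 48 (18.8%) every RelB-/- array was below every RelB+/- array, against 6.15% of all.

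The number of probes called turned on 1 array. Without RelB+/- 4, 16 of 47 histone probes were lower and 0 higher at a limma adjusted p under 0.05, against 0.505% lower, 0.0579% higher and 0.563% in either direction among the 12087 probes then kept. The 16 comprised 8 H4, 5 H2B, 2 H1 and 1 H3 probes and no H2A probe. Their log2 differences ran from -2.38 for H1f1 (limma adjusted p = 0.013) to -1.03 for H3c6 (limma adjusted p = 0.043), and H4c3 and H4c12 differed by -2.0 and -1.99. The median over the histone probes became -0.89, with 42 of 47 differences negative. Leaving out any other single array gave 0 histone calls. The labels set RelB+/- 4 apart by its number, which no RelB-/- array shares, and by the last letter, G, among the array names. They give no other difference from RelB+/- 1 to 3. Its Relb level (7.19, against 7.04 to 7.16 on RelB+/- 1 to 3) was that of its genotype. Leaving RelB+/- 4 out after seeing its values makes the 16 calls no evidence of a genotype difference.

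Lists of other cell cycle genes differed less between the arrays. In the S phase list, which holds the replication licensing and nucleotide synthesis genes, 20 of 25 genes were measured and 0 were called (0.546% of all kept probes were called in either direction). Their mean was 9.76, 9.56, 9.67 and 9.43 on RelB+/- 1 to 4 and 9.46, 9.62 and 9.46 on RelB-/- 1 to 3, and the median log2 difference was -0.066. Of the 20 genes 1 had every RelB-/- array below RelB+/- 1, 2 and 3, against 8.82% of all kept probes. The members with the largest differences were the helicase subunits Mcm6 (-0.43, SE 0.17) and Mcm7 (0.42, SE 0.51). Mcm7 was lowest on RelB+/- 4, and without that array its difference was -0.085. In the G2 and mitosis list 10 of 19 genes were measured, 0 were called and the median was -0.020, with Top2a, the topoisomerase that untangles copied DNA, at -0.45 (SE 0.18) and the kinase Plk1 at 0.28 (SE 0.23). In this list 1 of the 10 genes had every RelB-/- array below RelB+/- 1, 2 and 3. RelB+/- 4 was the lowest RelB+/- array for 7 of the 20 S phase genes and 6 of these 10, against 26.0% of all kept probes. Its mean was the lowest of all arrays in both lists, by little. For G2 and mitosis it was 9.97, against 10.0 to 10.42 on the others.

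Genes that process and carry histones were also measured. Among genes of histone transcript processing 11 of 16 were measured, 0 were called and the median log2 difference was 0.077. Eri1, an exonuclease that trims histone transcripts, differed by 0.59 (SE 0.15, limma adjusted p = 0.189) and Cstf2, a cleavage factor, by 0.42 (SE 0.18). Eri1 read 4.36 to 4.68 on RelB+/- arrays and 4.99 to 5.28 on RelB-/- arrays. Its RelB+/- level was that of probes detected on no array, such as H1f3 (4.42 to 4.66), so its difference starts from the floor. Probes of Slbp, of Casp8ap2 and of Cpsf3 were detected on no array. Hinfp, the factor of the H4 element, chosen here for that role, read 6.23, 6.43, 6.36 and 5.41 on RelB+/- 1 to 4 and 5.98, 6.31 and 6.07 on RelB-/- 1 to 3. It was lowest on RelB+/- 4, while RelB-/- 1 and 3 were below RelB+/- 1, 2 and 3 and RelB-/- 2 lay among them. Its difference was 0.014 (SE 0.25) with all arrays and -0.22 without RelB+/- 4. Of 20 listed histone chaperones 14 were measured and 0 called, with a median of -0.038. Every RelB-/- array was below RelB+/- 1, 2 and 3 for 5 of the 14 chaperones and for 1 of the 11 processing genes, against 8.82% of all kept probes. RelB+/- 4 had the lowest mean of all arrays in both lists. It was 9.31 for chaperones, against 9.34 to 9.55 on the others, and 7.67 for processing, against 7.75 to 7.98. Asf1b, a chaperone of new H3 and H4, differed by -0.51 (SE 0.20) and the importin Ipo4 by -0.41 (SE 0.16).

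Replication-independent histones, most of which are also made outside S phase and from polyadenylated transcripts, were measured for 8 of 11 genes and 0 were called. Their mean was 11.09, 11.10, 11.14 and 11.04 on RelB+/- 1 to 4 and 11.06, 10.87 and 10.87 on RelB-/- 1 to 3, with a median difference of -0.13. For 3 of the 8 every RelB-/- array was below RelB+/- 1, 2 and 3, against 8.82% of all kept probes. Macroh2a1, a large H2A variant of silent chromatin, differed by -0.41 (SE 0.20) and H2az1, an H2A variant at gene starts, by -0.36 (SE 0.15). H3f3a, which encodes the H3.3 protein that replaces H3 outside S phase, differed by -0.071 (SE 0.15) and was chosen after its value was seen.

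**Figure D4:**
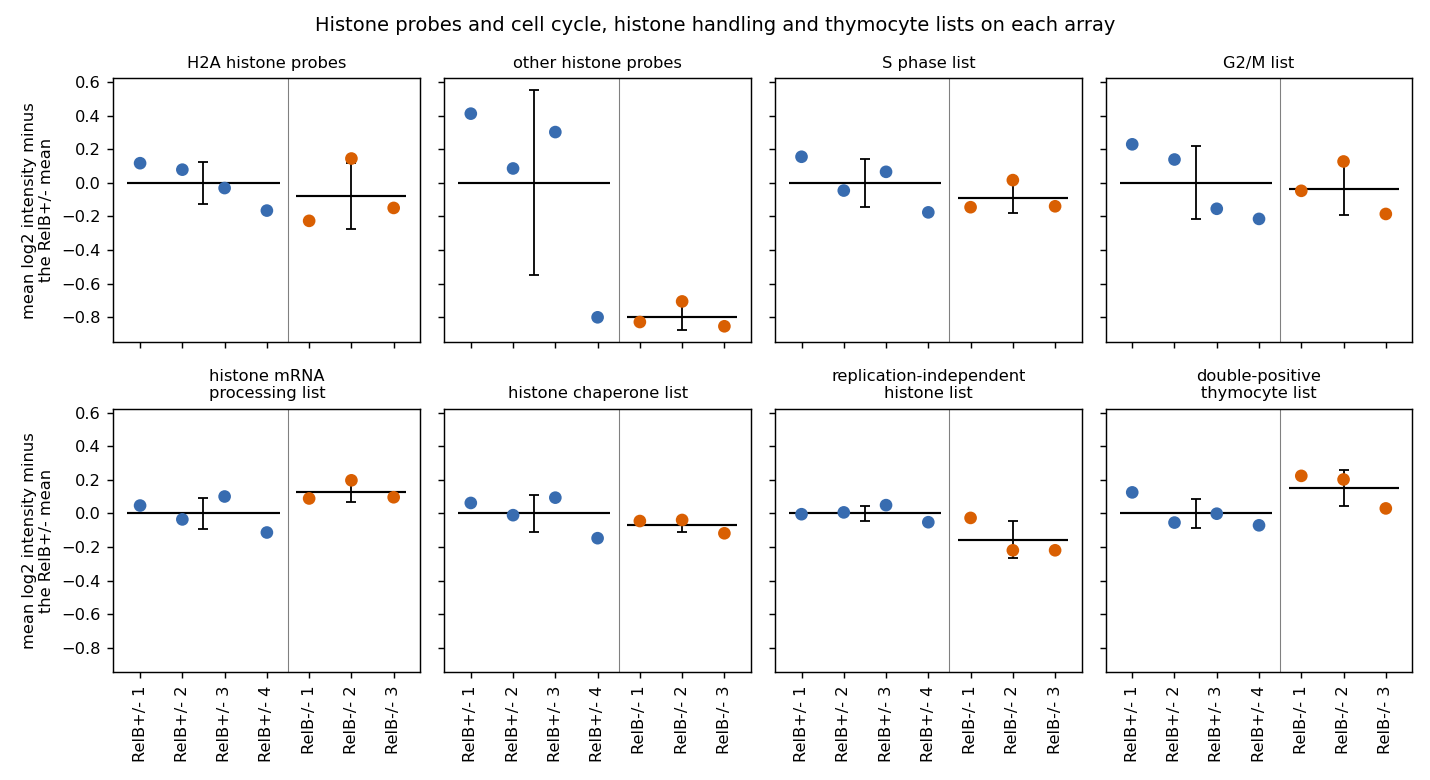
Mean normalised log2 intensity on each array, minus the RelB+/- mean, for H2A histone probes, all other kept histone probes and 6 gene lists. Points are arrays (blue RelB+/-, orange RelB-/-), and black lines and bars are the group mean and SD (n = 4 and n = 3). The 35 histone probes other than H2A have a RelB-/- mean clearly below their RelB+/- mean, with RelB+/- 4 at the RelB-/- level, while the other panels stay closer to 0.

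Markers of other cells moved with some of these arrays, and their part in the histone values was not tested. Of the erythroid list 3 of 10 genes were kept. RelB+/- 4 held the highest summed intensity of this list, 39720, against 18590 to 33250 on the other RelB+/- arrays and 15170 to 30880 on the RelB-/- arrays. Alas2, which starts haem synthesis in red cell precursors, read 6.57, 7.77, 8.54 and 11.37 on RelB+/- 1 to 4 and 7.49, 6.35 and 6.96 on RelB-/- 1 to 3, so that its highest array was RelB+/- 4. Of the B cell list 4 of 8 genes were kept, all 4 highest among RelB+/- arrays on RelB+/- 4, with summed intensities of 821.8 to 1408 in RelB+/- and 808.6 to 1012 in RelB-/-, while the defining genes Ms4a1, Pax5 and Cr2 were detected on no array. Without RelB+/- 4, Cd79a and Fcer2a would not have been kept, so their high place on that array adds no support.

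Between the genotypes, summed intensities of the granulocyte list (11 of 12 genes kept) were 786.5 to 8535 in RelB+/- and 6209 to 24630 in RelB-/-. In that list 3 genes (Mpo, Ctsg and Chil3) were called higher, against 0.0642% of all kept probes. Summed intensities of the epithelial list (5 of 8 kept) were 4990 to 8355 in RelB+/- and 2489 to 3558 in RelB-/-. Its genes Krt14 and Aire were called lower, against 0.481% of all kept probes. Ctsg (4.63 to 5.07) and Chil3 (4.69 to 5.01) on RelB+/- arrays, and Aire (4.36 to 4.44) on RelB-/- arrays, read near histone probes detected on no array. Such genes could be kept through the genotype where they were high, so their calls add no support. RelB+/- 4 lay with its genotype for the epithelial list (mean 9.37 against 9.12 to 9.53 on RelB+/- 1 to 3 and 7.74 to 8.14 on RelB-/-). The adipocyte list (7 of 11 kept) ran from 4170 to 9139 in RelB+/- and from 2245 to 10390 in RelB-/-. The heart muscle list did not follow the histones: its 2 high arrays were RelB+/- 2, where histones were high, and RelB-/- 3, where they were low. Without both of those arrays the median histone difference was -0.54 and 0 histone probes were called. The thymocyte list, at 69230 to 72320 in RelB+/- and 74220 to 82560 in RelB-/-, did not set RelB+/- 4 apart.

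Another 4 probes carry an older histone cluster name only among their RefSeq synonyms and were left out of the family. H4f16 read 8.24, 7.27, 7.87 and 5.95 on RelB+/- 1 to 4 and 6.62, 6.68 and 6.66 on RelB-/- 1 to 3. H2bu1-ps read 7.04, 6.77, 6.74 and 5.41 against 4.65, 5.89 and 5.53. Both repeated the order of arrays seen for the members, with RelB+/- 4 near or below the RelB-/- arrays. H2aw was detected on 2 arrays and H2bu2 on 0.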

How the data were processed

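Probe intensity values were deposited on a linear scale without normalization between arrays, and detection p-values were deposited beside them, per the file headers. The submitters' processing notes name GenomeStudio, with no version, export setting or background handling. A second table deposited by the authors holds processed values that behave as log2 values, with a median of 7.65 on every array and the probe order of the raw signals, and how it was made is not given.

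Raw signals were background-corrected by normexp in limma 3.58.1 (R 4.3.3), estimating the background from the detection p-values, with an offset of 16. They were then quantile-normalized and log2-transformed. Probes with a detection p under 0.05 for 3 or more mice were kept, and each one was tested by limma (lmFit and eBayes, 2-sided, no covariate, Benjamini-Hochberg adjustment). For a list gene the kept probe with the highest mean was used. Standard errors are those of the fit, and SDs are over the mice of 1 genotype. The number of arrays limits the precision.

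Values on every array were given for the 6 histone probes with the highest mean, the 6 with the largest difference, the 6 with the widest RelB+/- range and genes with several kept probes, and for others marked as chosen later or named as examples. In other lists the called genes or the 2 with the largest difference were named. The members and the lists (adipocytes, B cells, epithelium, erythroid cells, granulocytes, heart muscle, thymocytes, S phase, G2 and mitosis, processing, chaperones, replication-independent histones) were chosen with earlier results of these data known. Gene names came from the platform annotation, and all 56 probes matched RefSeq genes of GRCm38.p6. The labels do not say that equal replicate numbers mark a shared litter or day. The deviations of equally numbered arrays from their group means correlated at 0.301, -0.156 and -0.192 across probes, so no block was used. The test was first tested on simulated data. With an SD per probe taken from these arrays, it called 55% of log2 changes of 1 and 87% of changes of 2. A probe that was not called may therefore still differ. Figures were drawn with matplotlib 3.10.9.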

Additional observations from a re-analysis of the deposited data

Results flagged for a closer look

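The mean of the 10 H4 probes on RelB+/- 4 was 7.86, against 9.40 to 9.72 on RelB+/- 1 to 3. Its gap to the nearest RelB+/- array was 0.831 of the group's whole range, just above Dixon's 95% critical value for 4 samples. This was 1 of 26 sets of RelB+/- values checked, and chance passes about 1 in 20 such sets.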

How the results depend on the processing

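No histone probe was called in any of 18 alternatives; the exceptions were the fit without RelB+/- 4 (single arrays left out gave 0 to 16 calls) and the replicate block. The replicate block, in which RelB+/- 4 has no partner and adds nothing, gave 1 call, H1f1 (log2 difference -2.41, adjusted p = 0.019). The median histone difference was negative in all 20 alternatives (-0.40 with the authors' processed values to -0.89 without RelB+/- 4). The spread of the histone mean between arrays, 1.00 as reported, lay between 0.70 and 1.16. Over all probes, 68 calls became 25 with the authors' processed values, 15 with detection required on all 7 arrays (9833 probes tested), 20 with the replicate block, 20 without RelB+/- 2 and RelB-/- 3, and 30 to 68 without single arrays. The cause was not tested, except that the last 3 use fewer arrays or degrees of freedom. Only named probes with differences near 0 turned sign. Cyclic loess gave H2ac7 -0.040, H2ac10 -0.047, H2ac15 -0.036 and H2ac20 -0.00038, and median scaling gave H2ac24 0.035. The replicate block gave H2ac7 -0.013, and leaving out RelB+/- 2 and RelB-/- 3 gave H2ac12 0.033. Leaving out single arrays gave -0.13 to 0.026 for H2ac12, -0.017 to 0.062 for H2ac7 and -0.20 to 0.11 for 1 probe of H2bc18 (ILMN_1231066). With the 4 probes of older names, added after seeing the data, the median was -0.70 and 0 were called.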
